A study of Mus musculus with 2 samples.

Results

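The 40 genes described here encode proteins that copy DNA and divide the cell. They were chosen by name, and all 40 were found among the 43346 gene rows of both deposited gene tables. By the phase in which their products act, 18 were placed with the G1/S transition and DNA replication, and 22 with G2 and mitosis. The tissue was the duodenum, where the small intestine begins, of adult C57BL/6J mice aged 8 weeks, pooled from male and female littermates with no treatment or genetic change named in the labels. Polyadenylated RNA, depleted of ribosomal RNA, was read in 2 strand-specific paired libraries, replicate 1 and replicate 2, which form a single group. Both libraries carry the same donor entry and different tissue-sample entries, so separate animals cannot be assumed. Every p-value below therefore compares one library with the other, and differences may be technical. With no second group, the data show how strongly each gene was expressed, how the phase groups compare, and how far the libraries differ.

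Dividing cells of the small intestine lie mainly in the crypts, where stem cells and their transit-amplifying daughters cycle before the cells move onto the villi and stop dividing. In a cycling cell, E2F factors switch on the genes that license origins, supply nucleotides and build the replication fork. Later in the cycle, FoxM1, B-Myb and the MuvB complex switch on genes of the mitotic spindle, the kinetochore and the anaphase-promoting complex. Lymphocytes in the gut wall can cycle as well, so RNA of these genes need not come from the epithelium alone. In bulk tissue of this kind, fewer cells of a type and less RNA per cell cannot be told apart.

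The libraries held 44977004 expected counts (estimated fragments, in replicate 1) and 45438504 (in replicate 2). Markers of the labelled tissue were present, with 10 enterocyte genes summing to 13142 TPM in replicate 1 against 27797 TPM in replicate 2. TPM is a level per transcript length, as a share of all transcripts. Replicate 1 also held far more RNA of exocrine pancreas, stomach and Brunner's gland genes, the last being glands of the duodenum itself. The 12 exocrine pancreas genes summed to 73470 TPM against 133 TPM in replicate 2, and 9 stomach and Brunner's gland genes to 24911 TPM against 89.9 TPM. Which tissue this RNA came from was not tested. All 12 and all 9 of these genes were called higher in replicate 1, and none of them is a cell cycle gene. The 40 cell cycle genes together accounted for 0.0623% of TPM in replicate 1 against 0.0471% in replicate 2.

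Most of the 40 genes were detected at low to moderate levels. A TPM of at least 1 was reached in both libraries by 30 of them, and 9 lay under 1 in both. The exception to both was Kif20a, at 1.80 TPM in replicate 1 against 0.71 TPM in replicate 2. The median of the mean TPM was 6.88 over the 40 genes, beside 5.55 over the 15921 genes tested, whose counts averaged 10 or more. The order of levels was close in both libraries, with a Pearson correlation of 0.973 across the 40 genes on the log2(TPM + 1) scale, given as a description.

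Among the G1/S and replication genes, Cdt1 and Pcna had the highest levels. Cdt1, which loads the helicase onto origins together with Cdc6, had 44.8 TPM in replicate 1 against 57.7 TPM in replicate 2. Pcna, the sliding clamp that holds polymerases on DNA, had 57.4 TPM in replicate 1 against 44.3 TPM in replicate 2. Their order is not settled by these libraries, since Pcna was the higher of the pair in replicate 1 and Cdt1 in replicate 2. Gins2, a subunit of the GINS complex of the active helicase, followed Mcm7 at 21.9 TPM in replicate 1 against 16.0 TPM in replicate 2. Cdc6, the loading partner of Cdt1, lay near the bottom at 0.35 TPM in replicate 1 against 0.11 TPM in replicate 2, from 42 and 15 fragments.

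The 6 MCM subunits, which form the ring of the replicative helicase in equal numbers, were not equally represented in RNA. Mcm7 was the highest, with 22.4 TPM in replicate 1 against 18.9 TPM in replicate 2. Mcm2 had 16.9 TPM in replicate 1 against 7.27 TPM in replicate 2, and Mcm5 had 13.4 TPM in replicate 1 against 10.1 TPM in replicate 2. The remaining subunits lay below 10 TPM in both libraries. Mcm4 had 7.54 TPM in replicate 1 against 2.09 TPM in replicate 2, Mcm6 had 6.88 TPM in replicate 1 against 2.71 TPM in replicate 2, and Mcm3 had 6.00 TPM in replicate 1 against 5.2 TPM in replicate 2. The highest subunit exceeded the lowest by 3.73 times in replicate 1 and by 9.03 times in replicate 2, and Mcm7 led in both.

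Of the enzymes of nucleotide supply, Tyms, which makes thymidylate, had 20.6 TPM in replicate 1 against 9.77 TPM in replicate 2. The ribonucleotide reductase subunits Rrm2 and Rrm1 differed from each other in level: Rrm2 had 8.71 TPM in replicate 1 against 5.26 TPM in replicate 2, whereas Rrm1 had 4.40 TPM in replicate 1 against 1.17 TPM in replicate 2. Uhrf1, which carries DNA methylation onto the new strand, had 13.4 TPM in replicate 1 against 8.46 TPM in replicate 2.

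Cyclin E and E2F genes followed. Ccne1, the cyclin E that drives entry into S phase, had 11.8 TPM in replicate 1 against 4.68 TPM in replicate 2, and E2f1, an activating E2F, had 7.72 TPM in replicate 1 against 5.81 TPM in replicate 2. The lowest of all 40 genes was Ccne2, the other cyclin E, with 3 fragments in replicate 1 and 1 fragment in replicate 2. Both counts are at or under the 3 fragments that a count of 0 allows, so no fold was taken. Hells, a chromatin remodeller of DNA methylation, had 0.37 TPM in replicate 1 against 0.32 TPM in replicate 2, and the authors' deposited upper bound for it reached 11.9 TPM in replicate 1.

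The G2/M genes were led by the anaphase-promoting complex. Ube2c, its ubiquitin-conjugating enzyme, was the highest of all 40 genes, with 91.8 TPM in replicate 1 against 61.8 TPM in replicate 2. Cdc20, which activates the complex at anaphase, had 31.0 TPM in replicate 1 against 27.1 TPM in replicate 2. Between them by mean level lay 3 genes. Ccna2, the cyclin of S and G2 phase, had 46.7 TPM in replicate 1 against 52.7 TPM in replicate 2. Aurkb, the kinase of the chromosomal passenger complex, had 54.1 TPM in replicate 1 against 25.5 TPM in replicate 2, and Cenpa, the centromeric histone, had 35.7 TPM in replicate 1 against 28.9 TPM in replicate 2. The libraries ordered these 3 genes differently, with Aurkb first in replicate 1 and last in replicate 2.

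Other mitotic regulators had lower levels by TPM of the whole gene. Birc5, the survivin subunit of the passenger complex, had 19.6 TPM in replicate 1 against 11.3 TPM in replicate 2. Plk1, a kinase of mitotic entry, had 17.1 TPM in replicate 1 against 18.2 TPM in replicate 2. Cdk1, the mitotic kinase, had 15.2 TPM in replicate 1 against 10.4 TPM in replicate 2, and Foxm1 had 14.5 TPM in replicate 1 against 8.75 TPM in replicate 2. Ccnb2, Aurka and Ccnb1, a pair of B-type cyclins and a spindle-pole kinase, lay between 5.02 and 8.51 TPM in every library. Bub1b, a checkpoint kinase, had 3.32 TPM in replicate 1 against 2.44 TPM in replicate 2, and Top2a, the topoisomerase that untangles sister chromatids, had 3.0 TPM in replicate 1 against 1.88 TPM in replicate 2.

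The lowest G2/M genes included several that are widely used to mark dividing cells. Mki67, which coats mitotic chromosomes, had 0.98 TPM in replicate 1 against 0.42 TPM in replicate 2. Its transcript has 10075 bases, and those levels rested on 395 fragments in replicate 1 and 165 in replicate 2. The kinetochore motor Cenpe was the lowest of the group at 0.18 TPM in replicate 1 against 0.11 TPM in replicate 2. Bub1, the checkpoint kinase, had 0.42 TPM in replicate 1 against 0.12 TPM in replicate 2, and Nusap1, a spindle protein, had 0.41 TPM in replicate 1 against 0.17 TPM in replicate 2. The spindle assembly factor Tpx2, the spindle motor Kif11 and the kinetochore protein Cenpf ranged from 0.31 to 1.29 TPM over both libraries.

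**Figure D1:**
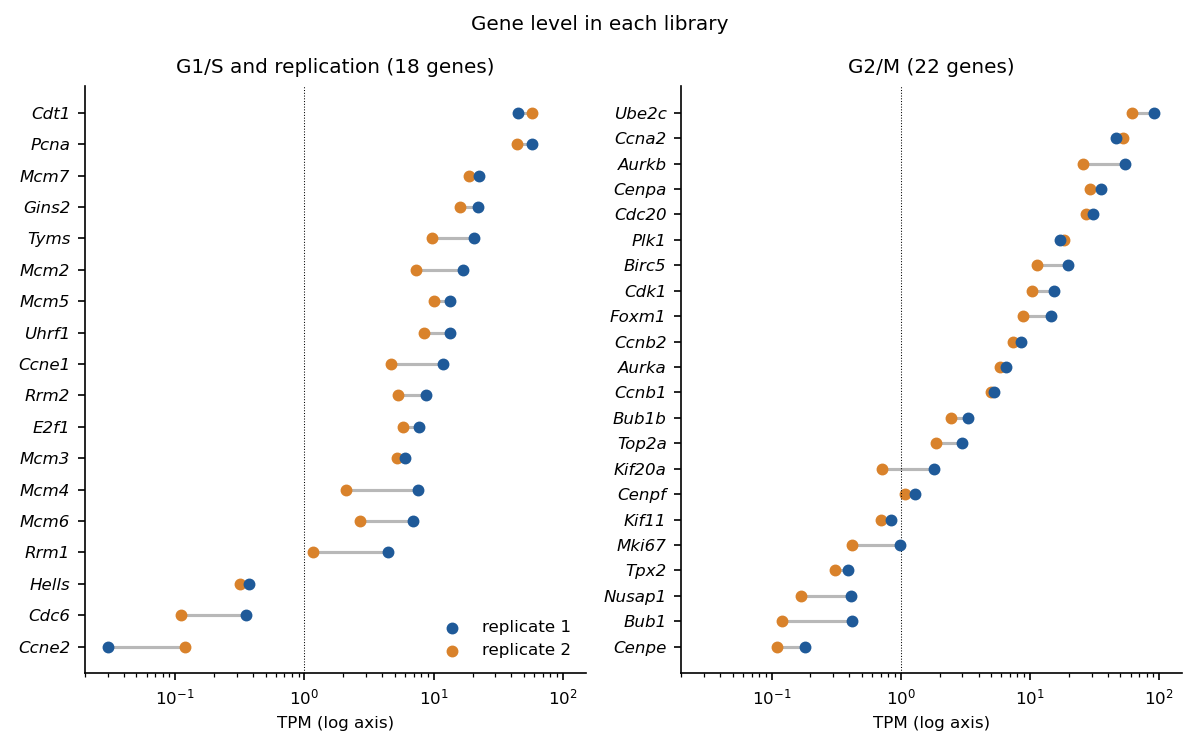
Level of each of the 40 genes in TPM (log axis), with replicate 1 in blue and replicate 2 in orange, the G1/S and replication genes on the left and the G2/M genes on the right. The dotted line marks 1 TPM; Ube2c stands highest, at 91.8 TPM in replicate 1 against 61.8 TPM in replicate 2, and 36 of the 40 genes lie further right in replicate 1.

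Summed over each group, the G1/S and replication genes reached 265 TPM in replicate 1 against 199.8 TPM in replicate 2 (mean 232 ± 45.8, SD, n = 2). The G2/M genes reached 359 TPM in replicate 1 against 271 TPM in replicate 2 (mean 315 ± 62.1, SD, n = 2). The ratio of the sums, G1/S and replication over G2/M, was 0.738 in each library. Few genes set these sums: the 5 highest of the G1/S group gave 63.1% of its sum in replicate 1 and 73.3% in replicate 2, and the 5 highest of the G2/M group gave 72.3% in replicate 1 and 72.4% in replicate 2.

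The ratio of 0.738 depended on which transcripts were counted. Deposited transcript tables listed 165 transcripts of the 40 genes, and the most abundant transcript was annotated as protein coding in both libraries for 30 genes. For 8 genes it was not protein coding in either library, and for Aurkb (in replicate 1) and Ccne2 (in replicate 2) it was not in a single library. Protein-coding transcripts held 80.7% of the G1/S sum in replicate 1 and 84.8% in replicate 2, and 64.7% of the G2/M sum in replicate 1 and 62.8% in replicate 2. Over all genes tested the same share was 75.9% in replicate 1 and 75.6% in replicate 2. With protein-coding transcripts alone, the G1/S and replication genes summed to 214 TPM in replicate 1 against 169 TPM in replicate 2, and the G2/M genes to 232 TPM in replicate 1 against 169.9 TPM in replicate 2. The ratio then became 0.920 in replicate 1 and 0.997 in replicate 2, a setting chosen after the data had been seen.

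Gins2 fell furthest in rank when coding transcripts alone were counted. Its leading transcript, Gins2-204, is a retained-intron form of 511 bases that held 21.3 of its TPM in replicate 1 and 15.1 in replicate 2. Protein-coding transcripts of Gins2 had 0.21 TPM in replicate 1 and were listed at 0 in replicate 2, which moved the gene from rank 9 of 40 to rank 39 by mean level. Ccna2 moved from rank 4 to rank 16, because Ccna2-202, a retained-intron form of 856 bases, held 81.8% of its level in replicate 1 and 90.5% in replicate 2. The coding transcript Ccna2-201 had 8.49 TPM in replicate 1 against 5.01 TPM in replicate 2.

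Cenpa was led in both libraries by Cenpa-202, a form annotated as subject to nonsense-mediated decay, with 26.2 TPM in replicate 1 against 22.2 TPM in replicate 2. Ccne1 was led by such a form as well, Ccne1-202, with 8.39 TPM in replicate 1 against 2.67 TPM in replicate 2. Retained-intron forms led Tyms (72.6% of its level in replicate 1 and 45.4% in replicate 2), Ccnb1 (76.9% in replicate 1 and 82.5% in replicate 2) and Cdk1 (42.2% in replicate 1 and 68.5% in replicate 2). The processed transcript Top2a-207, of 803 bases, led Top2a at 66.6% in replicate 1 and 63.7% in replicate 2. Ube2c, Cdt1 and Pcna, whose level came from coding transcripts in both libraries, kept ranks 1, 2 and 3. By mean coding TPM, Plk1 (17.6) and Birc5 (15.5) lay above Aurkb (14.2), Ccna2 (6.75) and Cenpa (6.10). By TPM of the whole gene, Plk1 and Birc5 lay below them.

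In 5 genes the leading transcript differed between the libraries. For Aurkb it was the processed transcript Aurkb-204 in replicate 1 and the coding Aurkb-201 in replicate 2. Counted by coding transcripts, Aurkb had 15.9 TPM in replicate 1 against 12.5 TPM in replicate 2, a narrower gap than that of the whole gene. The libraries also differed in the leading form of Cdc6, Ccne2, Kif20a and Uhrf1. In Kif20a the forms differ by 2 bases in length (3567 and 3565), and in Cenpf the lead was a coding fragment of 358 bases beside a longest coding form of 11130 bases at 0.12 TPM in replicate 1 against 0.07 TPM in replicate 2. Fragments that fit several transcripts were divided among them by estimation before deposit, so the split between a short form and the full-length form is less certain than the level of the gene.

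**Figure D2:**
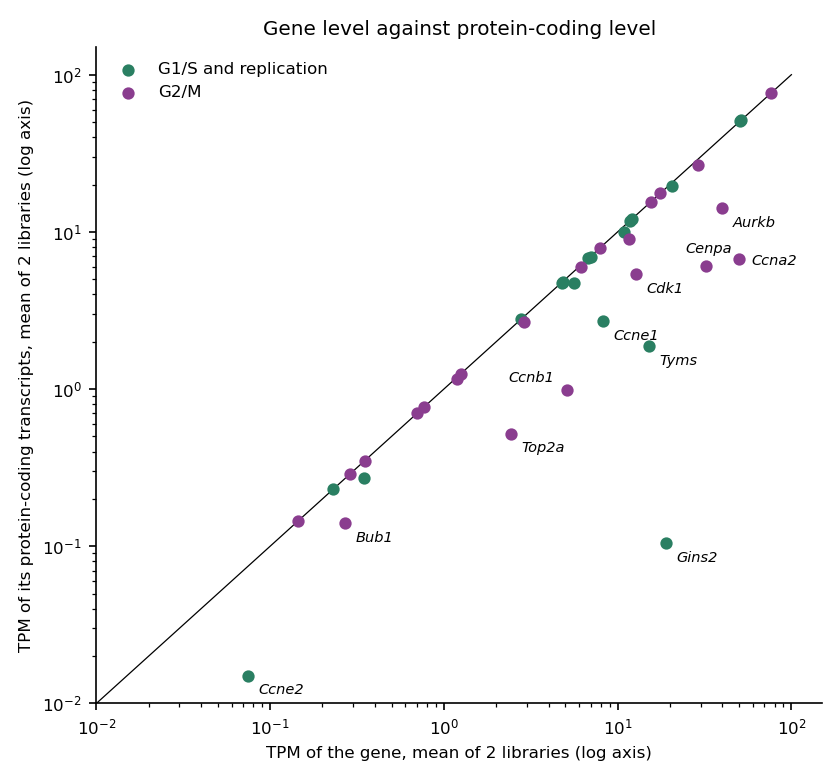
TPM of each gene (horizontal, log axis) against the TPM of its protein-coding transcripts (vertical, log axis), both as means of 2 libraries, with equality as the black line. Named genes lie below the line; on these log axes Gins2 lies furthest below it, with 0.21 coding TPM in replicate 1 and none listed in replicate 2.

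Promoter sequences are shown because E2F sites are known for G1/S genes, and the CHR and CCAAT boxes for G2/M genes. RefSeq windows from 250 bases before to 50 after the start (GRCm38.p6) were at hand for 32 of the 40 genes, as 17 windows of G1/S genes and 17 of G2/M genes, since Mcm7 and Uhrf1 have 2 each. Aurkb, Ccna2, Ccne2, Foxm1, Gins2, Kif20a, Mcm4 and Tpx2 had none there. The motifs were searched on both strands: an E2F site (TTTCCCGC, TTTCGCGC, TTTGGCGC or TTTGCCGC), a shorter E2F core (TTCCCGC, which the first spelling contains), the CHR, or cell cycle genes homology region (TTTGAA or TTCGAA), and the CCAAT box (CCAAT). These spellings were settled after shares of several had been seen. For each group, the printed stretches are those of the 4 genes with the highest mean TPM among genes with at least 100 bases before the start that lie outside every annotated exon and hold a motif. They run 5′ to 3′ from position -200 toward the start, in lower case, with matches in capitals.
Mcm2 (chr6:88898781-88898980, minus strand): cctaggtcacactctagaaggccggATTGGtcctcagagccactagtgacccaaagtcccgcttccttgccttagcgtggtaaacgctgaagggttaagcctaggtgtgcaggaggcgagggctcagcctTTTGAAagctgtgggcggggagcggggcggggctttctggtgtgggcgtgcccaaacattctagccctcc
Mcm5 (chr8:75109309-75109508, plus strand): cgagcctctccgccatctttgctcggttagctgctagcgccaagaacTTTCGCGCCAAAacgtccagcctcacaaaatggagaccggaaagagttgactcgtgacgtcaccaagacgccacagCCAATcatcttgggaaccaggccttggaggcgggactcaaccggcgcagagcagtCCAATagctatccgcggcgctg
Uhrf1 (chr17:56303137-56303320, plus strand): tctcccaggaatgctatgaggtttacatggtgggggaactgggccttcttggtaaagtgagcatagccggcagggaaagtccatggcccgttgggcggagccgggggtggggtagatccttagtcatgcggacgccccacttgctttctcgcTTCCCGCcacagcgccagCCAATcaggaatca
Rrm2 (chr12:24708054-24708240, plus strand): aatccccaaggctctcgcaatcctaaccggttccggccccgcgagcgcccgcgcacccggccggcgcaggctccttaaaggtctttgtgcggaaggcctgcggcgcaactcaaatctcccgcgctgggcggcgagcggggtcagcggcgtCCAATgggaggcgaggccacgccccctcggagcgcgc
Ube2c (chr2:164769729-164769897, plus strand): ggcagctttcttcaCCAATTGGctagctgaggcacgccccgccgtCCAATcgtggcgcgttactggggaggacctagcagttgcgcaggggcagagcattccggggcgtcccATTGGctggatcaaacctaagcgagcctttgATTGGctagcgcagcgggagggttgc
Cdc20 (chr4:118437353-118437543, minus strand): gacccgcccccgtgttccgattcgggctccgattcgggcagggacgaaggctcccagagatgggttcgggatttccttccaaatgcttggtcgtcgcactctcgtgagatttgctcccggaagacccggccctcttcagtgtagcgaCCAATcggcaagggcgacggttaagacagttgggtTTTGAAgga
Cdk1 (chr10:69352939-69353112, minus strand): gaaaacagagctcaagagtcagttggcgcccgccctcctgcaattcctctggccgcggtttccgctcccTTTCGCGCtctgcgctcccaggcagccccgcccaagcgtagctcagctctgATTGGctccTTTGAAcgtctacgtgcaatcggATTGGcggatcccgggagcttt
Ccnb2 (chr9:70421555-70421754, minus strand): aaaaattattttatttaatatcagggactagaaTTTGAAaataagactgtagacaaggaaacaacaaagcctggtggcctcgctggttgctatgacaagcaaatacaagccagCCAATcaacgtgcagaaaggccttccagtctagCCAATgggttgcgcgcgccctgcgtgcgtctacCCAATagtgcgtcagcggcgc

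In the Mcm5 stretch, a pair of E2F sites overlap at -153 and -149, and CCAAT boxes follow at -77 and -22. Mcm2 has a CHR match at -70 and a CCAAT box at -175, Uhrf1 has an E2F core at -48 beside a CCAAT box at -30, and Rrm2 has a CCAAT box at -50. Ube2c holds 5 CCAAT boxes in its stretch, of which those at -186 and -183 overlap, and its CHR match at -29 lies in an annotated exon and is not printed. Cdc20 has a CHR match at -18 with a CCAAT box at -53, Cdk1 has an E2F site at -131 and a CHR match at -71 between CCAAT boxes at -80 and -48, and Ccnb2 has a CHR match at -167 and CCAAT boxes at -87, -54 and -21.

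Over all windows, the E2F site occurred in 8 of 17 G1/S windows (47.1%) and in 1 of 17 G2/M windows (5.88%), that of Cdk1. Among all 32851 RefSeq windows it occurred in 2.26%, and among the 14893 windows of genes tested here in 3.53%. The E2F core occurred in 8 of 17 G1/S windows (47.1%) and 0 of 17 G2/M windows. Its share was 4.6% of all windows and 7.61% of windows of genes tested. The CHR was placed the other way round, in 2 of 17 G1/S windows (11.8%) and 13 of 17 G2/M windows (76.5%). Its share was 19.2% of all windows and 14.1% of windows of genes tested, the latter near that of the G1/S windows. CCAAT boxes were frequent in both groups, in 11 of 17 G1/S windows (64.7%) and 15 of 17 G2/M windows (88.2%). Their share was 37.4% of all windows and 36.7% of windows of genes tested. All 13 G2/M windows with a CHR also held a CCAAT box, as did the 2 G1/S windows with a CHR. Of 6316 RefSeq windows with a CHR, 2472 held a CCAAT box. The pairing thus occurred in 76.5% of G2/M windows and 11.8% of G1/S windows. Its share was 7.52% of all windows and 5.63% of windows of genes tested. Of the 32 genes, 5 held none of the motifs in the window: E2f1, Tyms, Ccne1, Birc5 and Nusap1. These matches are descriptions of letters, and no test was run on them.

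**Figure D3:**
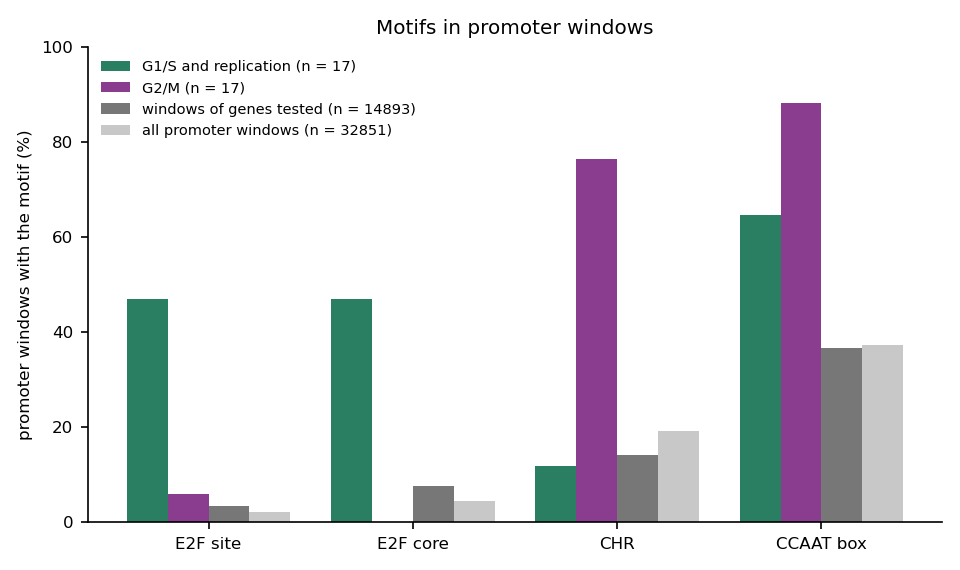
Share of promoter windows that hold each motif (vertical axis, percent, from 0), for G1/S and replication genes, G2/M genes, genes tested in these libraries and all RefSeq windows, from left to right. The E2F site stands at 47.1% of G1/S windows and 5.88% of G2/M windows, and the CHR at 11.8% and 76.5%.

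Between the libraries, the cell cycle genes were mostly higher in replicate 1. A gene was called where an exact binomial test on counts scaled by TMM gave a Benjamini-Hochberg adjusted p under 0.05 and the fold was at least 2. Of the 39 genes tested (Ccne2 was too low), 9 were called higher in replicate 1 (23.1%) and 0 higher in replicate 2. Of all 15921 genes tested, 14.5% were called higher in replicate 1 and 11.4% higher in replicate 2. Scaled by total gene count in place of TMM, those shares were 19.9% and 7.93%, and Ccne1 joined the 9 genes. With TPM in place of scaled counts, Aurkb, Ccne1 and Tyms joined them. Counted by coding transcripts, Ccne1 had 3.37 TPM in replicate 1 against 2.01 TPM in replicate 2. Tyms had 2.12 TPM in replicate 1 against 1.63 TPM in replicate 2. These gaps, like that of Aurkb, were narrower than those of the whole genes. By the same exact test at an unadjusted p under 0.05, 0 of the 39 genes were at least 2-fold higher in replicate 2. With an adjusted p under 0.05 at any fold, 24 were higher in replicate 1 and 2, Cdt1 and Plk1, were higher in replicate 2, beside 38.2% of all genes higher in replicate 1 and 36.4% higher in replicate 2. An edgeR exact test with a common dispersion (biological coefficient of variation 0.529, from both libraries treated as 1 group) also counts the spread between them. By that test 0 of the 39 genes were called in either direction and 0 had an unadjusted p under 0.05, while 1.09% of all genes were called higher in replicate 1 and 0.283% higher in replicate 2. The 9 calls exceed counting error, and were not shown to exceed the general spread between these libraries.

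Of the 17 G1/S and replication genes tested, 5 were called (29.4%). Rrm1 (ENSMUSG00000030978.9, chr7:102441695-102469771, plus strand; coordinates are of mm10) was 3.34-fold higher in replicate 1 (95% counting interval 2.82 to 3.96, Benjamini-Hochberg adjusted p = 7.63e-55, exact binomial test), from 685 fragments in replicate 1 and 176 in replicate 2. Mcm4 (ENSMUSG00000022673.4, chr16:15623897-15637400, minus strand) was 3.21-fold higher (2.81 to 3.68). Mcm6 (ENSMUSG00000026355.7, chr1:128331590-128359664, minus strand) was 2.18-fold higher (1.91 to 2.50), and Mcm2 (ENSMUSG00000002870.7, chr6:88883474-88898780, minus strand) 2.08-fold higher (1.92 to 2.25). The other helicase subunits did not pass the fold threshold, at 1.40-fold for Mcm3 (1.24 to 1.59), 1.19-fold for Mcm5 (1.11 to 1.28) and 1.03-fold for Mcm7 (0.966 to 1.09). The intervals of the called subunits lie above those of the other subunits. The call rests on the same folds, and the intervals cover counting error only, so this order does not test a split among the subunits. Cdc6 (ENSMUSG00000017499.11, chr11:98907801-98923940, plus strand) was 2.40-fold higher with a wide interval (1.3 to 4.66, adjusted p = 0.00514, exact binomial test).

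At the other end, Cdt1 had a fold of 0.695 (0.665 to 0.726), the only G1/S gene with a log2 ratio below 0, and Gins2 had 1.10 (0.937 to 1.28). Ccne1 missed the fold threshold at 1.85 (1.55 to 2.21). The median log2 ratio of the G1/S genes was 0.53, with 16 of 17 above 0.

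Of the 22 G2/M genes, 4 were called (18.2%), a share close to that of all genes. Bub1 (ENSMUSG00000027379.9, chr2:127801122-127831865, minus strand) was 2.36-fold higher in replicate 1 (1.19 to 5.01), from 33 fragments in replicate 1 and 12 in replicate 2. Kif20a (ENSMUSG00000003779.11, chr18:34624613-34633277, plus strand), the motor of the central spindle, was 2.27-fold higher (1.78 to 2.91). Nusap1 (ENSMUSG00000027306.11, chr2:119618298-119651244, plus strand) was 2.19-fold higher (1.25 to 4.01), and Mki67 (ENSMUSG00000031004.7, chr7:135689784-135716361, minus strand) 2.05-fold higher (1.71 to 2.48). With a trend of the ratio on level over all genes removed, the calls of Bub1, Kif20a, Nusap1 and Mki67 were lost. With a trend on GC content removed, those of Bub1, Nusap1 and Mki67 were lost.

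The highest G2/M genes differed less in TMM-scaled counts. Ube2c had a fold of 1.36 (1.28 to 1.44), Aurkb 1.44 and Cenpa 1.19, without passing the fold threshold, although Aurkb passed it in TPM. Plk1 had a fold of 0.839 (0.779 to 0.903), Cdc20 0.941 (0.880 to 1.01) and Aurka 0.968 (0.841 to 1.11). Cdc20, Aurka, Ccna2 and Top2a, slightly lower in replicate 1 with TMM, were higher there when scaled by total gene count. Cdt1 was lower in replicate 1 with either scaling, from 3663 fragments in replicate 1 and 4518 in replicate 2. Plk1 had 1405 fragments in replicate 1 and 1436 in replicate 2, so scaling by total gene count left almost no difference. The median log2 ratio of the G2/M genes was 0.27, with 17 of 22 above 0. For the 39 genes together the median was 0.33, with 33 above 0, beside a median of 0.04 and 52.1% above 0 over all genes tested. Whether the medians of the phase groups differ was not tested. With coding transcripts alone, the setting chosen after the data had been seen, Cenpa and Gins2 were called and Bub1 was not. In that setting Ccna2 had a fold of 1.51 (1.36 to 1.68) and Top2a 0.742 (0.560 to 0.983). Cdc20 had 0.917 and Aurka 0.956 there. The Gins2 call rested on 32 coding fragments in replicate 1 and 0 in replicate 2, as divided among its transcripts by estimation. The whole gene had 372 fragments in replicate 1 and 291 in replicate 2.

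**Figure D4:**
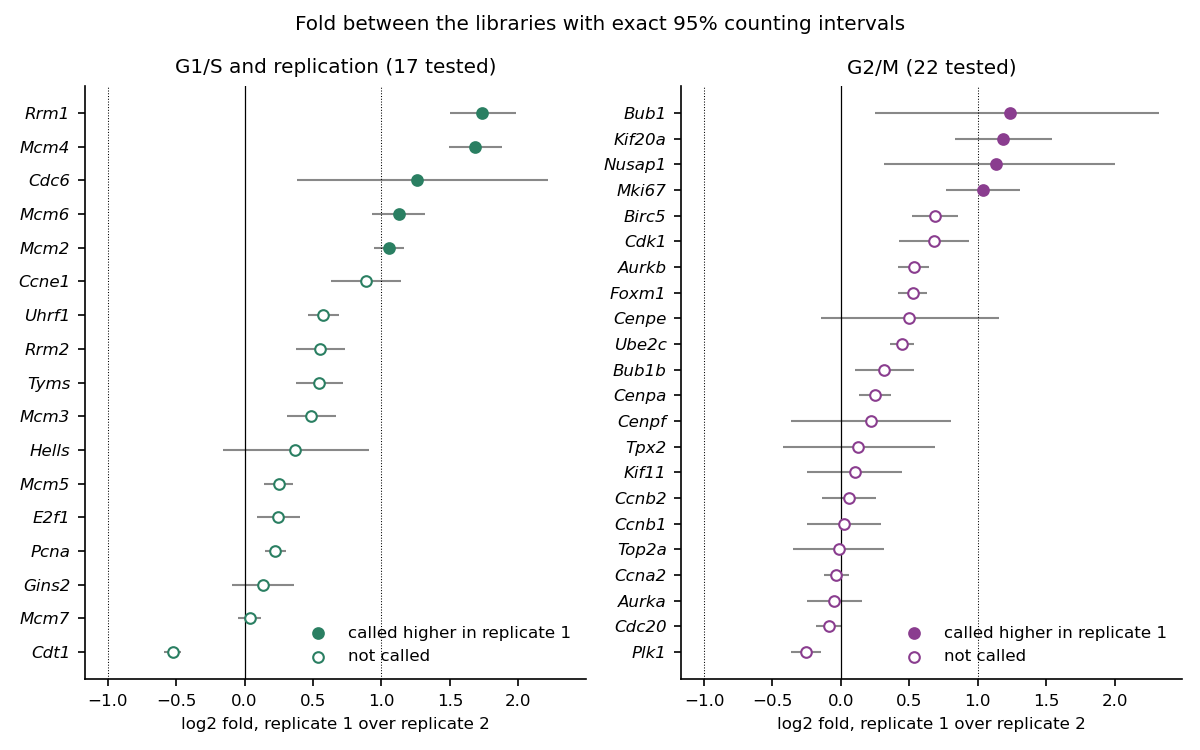
Log2 fold of each gene, replicate 1 over replicate 2, from TMM-scaled counts, with exact 95% counting intervals as bars and dotted lines at 2-fold in each direction. Filled points are the 9 called genes, 5 in the G1/S group and 4 in the G2/M group; Rrm1 is furthest to the right at 3.34-fold and Cdt1 furthest to the left at 0.695.

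Markers of the cell types that could hold these transcripts moved between the libraries too. Over all genes tested, 14.5% were called higher in replicate 1 and 11.4% higher in replicate 2. Of 10 intestinal stem cell genes, 5 were called higher in replicate 1 and 0 higher in replicate 2. Their summed levels were 371 TPM in replicate 1 against 225 TPM in replicate 2. The called genes were Sox9, Cd44, Slc12a2, Rnf43 and Znrf3. Lgr5, Olfm4, Smoc2 and Ascl2 had folds of 1.36, 1.32, 1.20 and 1.11 without passing the fold threshold, and Axin2 had 0.762. Markers of differentiated cells mostly went the other way. Called higher in replicate 2 were 6 of 10 enterocyte genes, 5 of 6 Paneth cell genes and 4 of 6 goblet cell genes. The enterocyte gene Alpi and the goblet gene Spdef were called higher in replicate 1. Paneth cell genes summed to 2645 TPM in replicate 1 against 8063 TPM in replicate 2, and goblet cell genes to 7082 TPM in replicate 1 against 18763 TPM in replicate 2. T lymphocyte genes summed to 266 TPM in replicate 1 against 728 TPM in replicate 2, with 9 of 11 called higher in replicate 2. Germinal centre B cell genes summed to 49.6 TPM in replicate 1 against 74.3 TPM in replicate 2, with 4 of 7 tested called higher in replicate 2. Of that list, S1pr2 and Bcl6 had folds of 1.44 and 1.34 without passing the fold threshold, and Cr2, with 0 fragments in replicate 1 and 11 in replicate 2, was too low to test. Smooth muscle genes summed to 1831 TPM in replicate 1 against 1242 TPM in replicate 2, with 2 of 6 called higher in replicate 1, and plasma cell genes had 0 of 6 called in either direction, at 937 TPM in replicate 1 against 784 TPM in replicate 2. The part of these cell types in the levels of the cell cycle genes was not tested.

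Further genes of the same machinery were listed apart from the 40. Of 52 other replication genes, 49 were tested, 2 were called higher in replicate 1 and 0 in replicate 2, with a median log2 ratio of 0.25. The called genes were Atad2, a chromatin ATPase, at 6.64-fold (4.82 to 9.35), and Pole, the leading-strand polymerase subunit, at 2.41-fold (2.05 to 2.84). By level this list was led by the polymerase delta subunits Pold2 (227 TPM in replicate 1 against 114.9 TPM in replicate 2) and Pold1 (67.6 TPM in replicate 1 against 58.9 TPM in replicate 2), and by the deubiquitinase Usp1 (157 TPM in replicate 1 against 105 TPM in replicate 2). These levels are TPM of the whole gene, over short estimated lengths for Pold2 and Usp1. The length was 652 bases in replicate 1 and 737 in replicate 2 for Pold2, and 361 and 445 for Usp1. In replicate 1, Usp1 had 1111 fragments, whereas Dnmt1 had 2946 fragments and 14.1 TPM over 5282 bases. Levels of coding transcripts are not given for these further lists. The share of called genes, 4.08%, stands under the 14.5% of all genes.

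Of 58 other mitotic genes, 52 were tested, 8 were called higher in replicate 1 and 1 higher in replicate 2, with a median log2 ratio of 0.28. The 15.4% called higher in replicate 1 is near the 14.5% of all genes. The called genes with the largest folds were the cytokinesis gene Anln (2.93-fold), the condensin subunits Smc4 (2.82-fold) and Smc2 (2.43-fold), the Cdk-binding Cks2 (2.68-fold) and the cytokinesis activator Ect2 (2.39-fold). Hjurp, the chaperone that deposits Cenpa, was the gene called higher in replicate 2, at 21.4 TPM in replicate 1 against 33.9 TPM in replicate 2, a fold of 0.449 (0.428 to 0.470), which fell short of the fold threshold when scaled by total gene count. Cenpk, a kinetochore gene, was at 0 in both libraries. Levels were highest for Cdca3, at 51.2 TPM in replicate 1 against 48.9 TPM in replicate 2, then Ncapd2 and Lmnb1.

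Both called inhibitors of the cycle were lower in replicate 1. Of 10 cell cycle inhibitors and pocket proteins, 9 were tested, 0 were called higher in replicate 1 and 2 higher in replicate 2 (22.2%, beside 11.4% of all genes), and the median log2 ratio was -0.47. Cdkn1a, the p21 inhibitor of cyclin-dependent kinases, had 98.3 TPM in replicate 1 against 219 TPM in replicate 2, a fold of 0.416 (0.404 to 0.428). Cdkn2b, the p15 inhibitor of Cdk4 and Cdk6, had 88.7 TPM in replicate 1 against 213 TPM in replicate 2, a fold of 0.377 (0.364 to 0.391). The level of Cdkn1a was above that of all 40 genes in both libraries, and that of Cdkn2b was above all 40 in replicate 2 and below Ube2c in replicate 1.

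None of the 6 G1 cyclin and kinase genes was called, by the exact binomial test with the 2-fold threshold, with a median log2 ratio of 0.34. Cdk4 was the highest of them at 77.5 TPM in replicate 1 against 69.0 TPM in replicate 2. Of 14 further E2F and MuvB genes, the atypical repressors E2f8 (2.31-fold) and E2f7 (2.01-fold) were called higher in replicate 1, and 0 were called higher in replicate 2. These 14.3% are near the 14.5% of all genes. E2f4, a repressor E2F of resting cells, was the highest of this list at 101 TPM in replicate 1 against 120.1 TPM in replicate 2.

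Levels of the 40 genes were higher where the longest annotated transcript was richer in GC. Spearman's rho between GC content and TPM was 0.61 in replicate 1 and 0.63 in replicate 2 across the 40 genes, and 0.32 in replicate 1 and 0.33 in replicate 2 across 15835 tested genes with a GC value. The 10 genes with GC content under 45% had a median of 0.558 TPM, and the 16 with at least 50% had a median of 11.9 TPM. Among all genes tested the medians were 1.72 TPM and 11.1 TPM. The GC-poor genes included Ccne2, Hells, Bub1, Nusap1, Cenpe, Kif11, Cenpf, Top2a, Rrm1 and Ccnb1, and those of at least 50% included Ube2c, Cdt1, Cdc20, Aurkb and Plk1. TPM was also lower for genes of greater estimated length, with rho of -0.62 in replicate 1 and -0.56 in replicate 2 across the 40 genes. Across all genes tested, rho was -0.29 in replicate 1 and -0.30 in replicate 2. That length is weighted by the estimated shares of the transcripts. A gene assigned to a short form thus gets a short length and a higher TPM from the same estimate. These correlations are across genes of the same libraries, genes are not independent replicates, and the part of GC content or length in the order of levels was not tested.

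**Figure D5:**
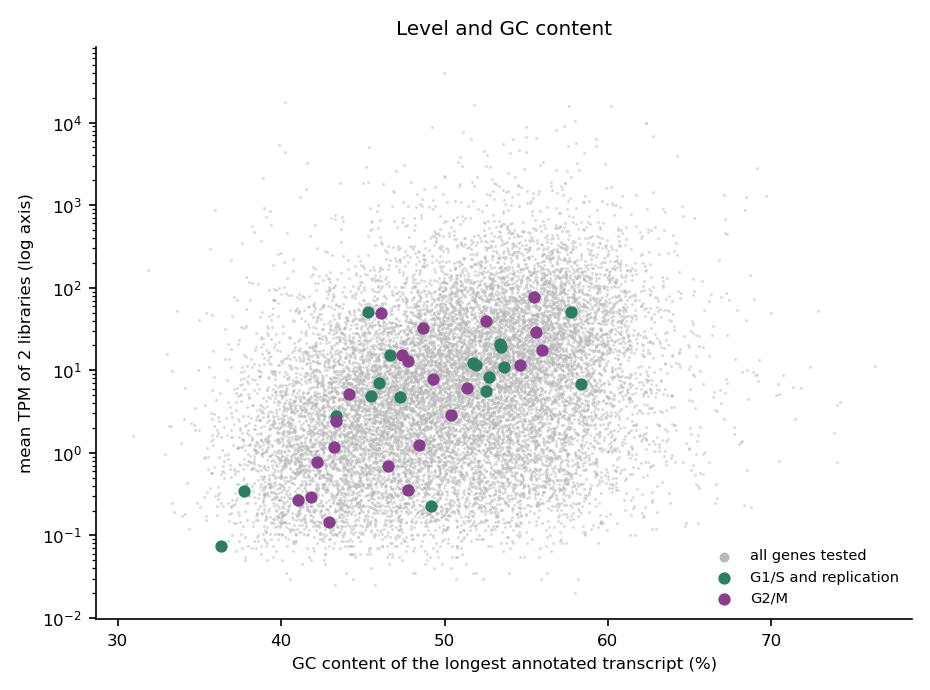
GC content of the longest annotated transcript (horizontal, percent) against mean TPM of 2 libraries (vertical, log axis), with all tested genes in grey and the cell cycle genes in colour. The 10 cell cycle genes under 45% GC lie between 0.075 and 5.13 TPM, and the 16 with at least 50% lie between 2.88 and 76.8 TPM.

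The annotated pseudogene copies of Pcna, Ccnb1 and Ccnb2, with which reads could be shared, held at most 8 fragments in replicate 1 and 4 in replicate 2.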

How the data were processed

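RNA-seq of adult mouse duodenum gave a gene table and a transcript table for each of 2 libraries of 1 group. Per the text files beside the tables, reads were aligned to mm10 with ERCC spike-ins and quantified against GENCODE M4; the sources used here do not name the aligner or quantifier. Per the file headers, the authors deposited expected counts, TPM, FPKM, isoform percent and interval bounds. Symbols, positions and transcript types were taken from GENCODE M21, which matched 42462 of 43346 gene rows, so types can differ from those of M4. ERCC rows (1.35% of expected counts in replicate 1 and 1.36% in replicate 2), 26248 numbered rows at 0 and 1 phiX row were left out of the test. Junction and contig lists on mm9 were not used here.

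Expected counts were rounded and scaled by TMM (edgeR 4.0.16, limma 3.58.1, R 4.3.3). Each gene with a mean count of at least 10 was tested with an exact two-sided binomial test (scipy 1.17.1, Python 3.11.15, numpy 2.4.6, pandas 2.3.3). The p-values were Benjamini-Hochberg adjusted over 15921 genes. A call needed an adjusted p under 0.05 and at least 2-fold. Log2 ratios, replicate 1 over replicate 2, used CPM plus 0.5. Intervals are exact Clopper-Pearson at 95%; without molecular identifiers they and the floor of 3 counts (0.0678 CPM in replicate 1 and 0.0671 CPM in replicate 2) cover counting error only. Alternatives used DESeq2 1.42.0 size factors, total counts, spike-ins, TPM, trend removal (statsmodels 0.14.6), other filters and an edgeR exact test. Figures were drawn with matplotlib 3.10.9. The test was checked on simulated counts.

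The 40 genes and the other lists were chosen with earlier results of these data known. Values are given in full for called genes, for the highest and lowest genes of each phase group by mean TPM, and for those with the largest and smallest log2 ratios. Printed promoter stretches were limited to bases outside every annotated exon after the windows had been seen. The values of 1 marker gene are not reported here.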

Additional observations from a re-analysis of the deposited data

How the results depend on the processing

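The number of genes called higher in replicate 1 was 9, and between 6 and 12 under 12 of 14 alternatives. It was 5 with a trend on level removed and 0 with the edgeR exact test. The cause was not tested. The share of all genes called higher in replicate 1, 14.5% in the main setting, moved as well. With the level trend removed it was 12.8%, close to the 5 of 39 cell cycle genes. With a GC trend removed it was 13.9%, beside 6 of 39. It was 19.3% with TPM, 23.97% at 1.5-fold and 10.7% with a mean count of at least 100. Under all 14 alternatives, 0 of the cell cycle genes were called higher in replicate 2. The median log2 ratio of the G1/S genes (0.53) became 0.75 with total counts, 0.76 with spike-ins and 0.40 with a GC trend removed. That of the G2/M genes (0.27) became 0.48 with total counts, 0.49 with spike-ins, 0.13 with a level trend removed and 0.15 with a GC trend removed. Total counts and spike-ins also moved the median of all genes from 0.04 to 0.24. Without its highest gene, the mean sum was 181 TPM for G1/S and 238 TPM for G2/M, and with protein-coding transcripts only, added after the data were seen, the G2/M sum was 201 TPM. The ratio of sums was 0.743 with posterior mean TPM, 0.752 without the highest genes and 0.959 with coding transcripts only. Leaving out 1 library at a time gave sums of 199.8 to 265 TPM for G1/S and 271 to 359 TPM for G2/M, and a ratio of 0.738 to 0.738. No paired analysis was possible because both libraries belong to a single group. Cdc6, Nusap1 and Bub1, with at most 46 fragments in a library, have wide intervals, and none of the 3 was called with a mean count of at least 100 required, which left 32 genes tested.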
